A study of Mus musculus with 8 samples.

Results

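The genes examined were those for the translation initiation factors (eIFs), taken as every row of the deposited count table whose Entrez identifier maps to a mouse symbol that starts with Eif and a digit from 1 to 6. Of 58 such rows, 4 eIF2alpha kinase genes and 1 pseudogene were left out, so that 53 genes of 27179 rows remained. RNA was sequenced from 8 whole orthotopic tumours of 4T1.13 cells, a metastatic BALB/c mouse mammary carcinoma line, with 4 4T1.13-VC tumours (VC) and 4 4T1.13-miR-21-KD tumours. Both cell populations carried a lentivirus with mCherry and hygromycin resistance in which the H1 promoter drove an RNA that sequesters mature miR-21 (miR-21-KD) or a scrambled RNA (VC), and each was a pool of 6 clones. The lentivirus acts in the injected cells only, whereas a whole tumour also holds cells of the host. The hosts were immunocompetent female BALB/c mice, 7 to 8 weeks old at injection into the mammary fat pad, and the sample labels date the recovery of both groups to day 14, whereas the study's methods give an earlier day. The comparison asked how the RNA of control tumours differed from that of tumours with suppressed miR-21 activity, at the time the latter began to regress.

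Initiation factors bring the initiator methionyl-tRNA, the small ribosomal subunit and an mRNA together, and they are the main point at which cells set their rate of protein synthesis. The cap complex eIF4F (eIF4E, eIF4G and eIF4A) recruits the mRNA and eIF4E-binding proteins restrain it, eIF2 delivers the initiator tRNA and is recharged by eIF2B, eIF3 bridges the ribosome and the mRNA, and eIF1, eIF1A, eIF5 and eIF5B govern scanning, start codon choice and subunit joining. In tumours these factors lie downstream of mTORC1 and of the eIF2alpha kinases.

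The RNA that the sequestering transcript binds is mature miR-21a-5p, which RefSeq places at chr11:86584120-86584141 on the minus strand (GRCm38.p6). It is shown because its seed, bases 2 to 8 in capitals, gives the letters on which the search for sites was built. Other kinds of pairing with miR-21 were not searched for.

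miR-21a-5p: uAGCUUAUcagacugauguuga

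The letters complementary to this seed, ATAAGCT, occurred in the 3′ untranslated region (UTR) of 5 members, which is 10.2% of the 49 members tested, beside 7.7% of the 13371 tested genes with an annotated 3′ UTR. Of these 5 genes, Eif2a and Eif1ax were lower in miR-21-KD tumours, and Eif4ebp2, Eif4g2 and Eif1a were not past the threshold in either direction. The sites in the first 4 of these genes lie at chr3:58557402-58557423 (plus strand, Eif2a), chrX:159386549-159386570 (plus, Eif1ax), chr10:61431904-61431925 and chr10:61430591-61430612 (minus, Eif4ebp2) and chr7:111071641-111071662 (minus, Eif4g2) of GRCm38. The site of Eif1a is not shown, and the others are shown with the 7 complementary bases in capitals, together with the site of Pdcd4 at chr19:53929421-53929442 (plus strand), which codes for an inhibitor of eIF4A and is a known miR-21 target. Of the sites shown, the seed match of Eif1ax, of Pdcd4 and of the second Eif4ebp2 site is followed by an A. The letters also occurred in the 3′ UTR of Mknk1, Paip2b and Denr, related genes examined below, and of the proliferation marker Pcna. None of these was called higher, and their sites are not shown.

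Eif2a site: attttttccagATAAGCTtaat
Eif1ax site: gtcttactcacATAAGCTacaa
Eif4ebp2 first site: ctgtctcaggaATAAGCTtggg
Eif4ebp2 second site: cagtcacagccATAAGCTatta
Eif4g2 site: gcacctaaggaATAAGCTtgtc
Pdcd4 site: tgggtgttctgATAAGCTactt

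The libraries held 12134849 to 13592695 counts each, so that a count of 0 allows up to 0.221 to 0.247 CPM (counts scaled to library size; 3 counts, counting error only). Member genes took 0.992% to 1.07% of all counts in VC tumours and 0.760% to 1.00% in miR-21-KD tumours, and the groups overlapped by 1 miR-21-KD tumour, replicate 2. The labels do not say whether replicates came from separate mice, whereas the study calls them biological replicates. The p-values set a difference against the spread between these tumours. Each group came from 1 pool of clones, so a difference between the pools cannot be told apart from the knockdown.

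Of the 53 genes, 49 had enough counts to be tested. Eif4e1b (1 count in miR-21-KD tumour 3), Eif4a3l1 (1 and 3 counts in VC tumours 2 and 3, and 2 in miR-21-KD tumour 3), Eif2c5 (1 count in miR-21-KD tumour 4) and Eif2s3y (0 counts in every tumour) were not. Eif2c5 is a long non-coding RNA with an older Argonaute symbol and no initiation factor.

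Of the initiation factor genes that passed the test, most were lower in miR-21-KD tumours. By edgeR's quasi-likelihood test with Benjamini-Hochberg adjustment over all 14382 genes tested, 21 of the 49 members (42.9%) passed an adjusted p of 0.05, against 39.1% of all genes tested. The directions were unequal: 18 members (36.7%) were lower, against 19.5% of all genes, and 3 members (6.12%) were higher, against 19.6% of all genes. The total share of members called was thus near that of all genes, and the difference from the background lay in the direction. Groups did not overlap, with all miR-21-KD tumours below all VC tumours, for 18 members, against 18.9% of all genes, and with all miR-21-KD tumours above for 3 members, against 16.3% of all genes. The median log2 fold change (miR-21-KD minus VC) was -0.22 over the tested members and -0.01 over all genes tested, and 38 of the 49 estimates were below 0. The changes were small, from -0.85 (Eif3l) to 1.09 (Eif4e3) on the log2 scale, and 1 member, Eif4e3, was called with an estimate beyond 2-fold. In bulk tumours, fewer cells of a type and less RNA per cell cannot be told apart.

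**Figure D1:**
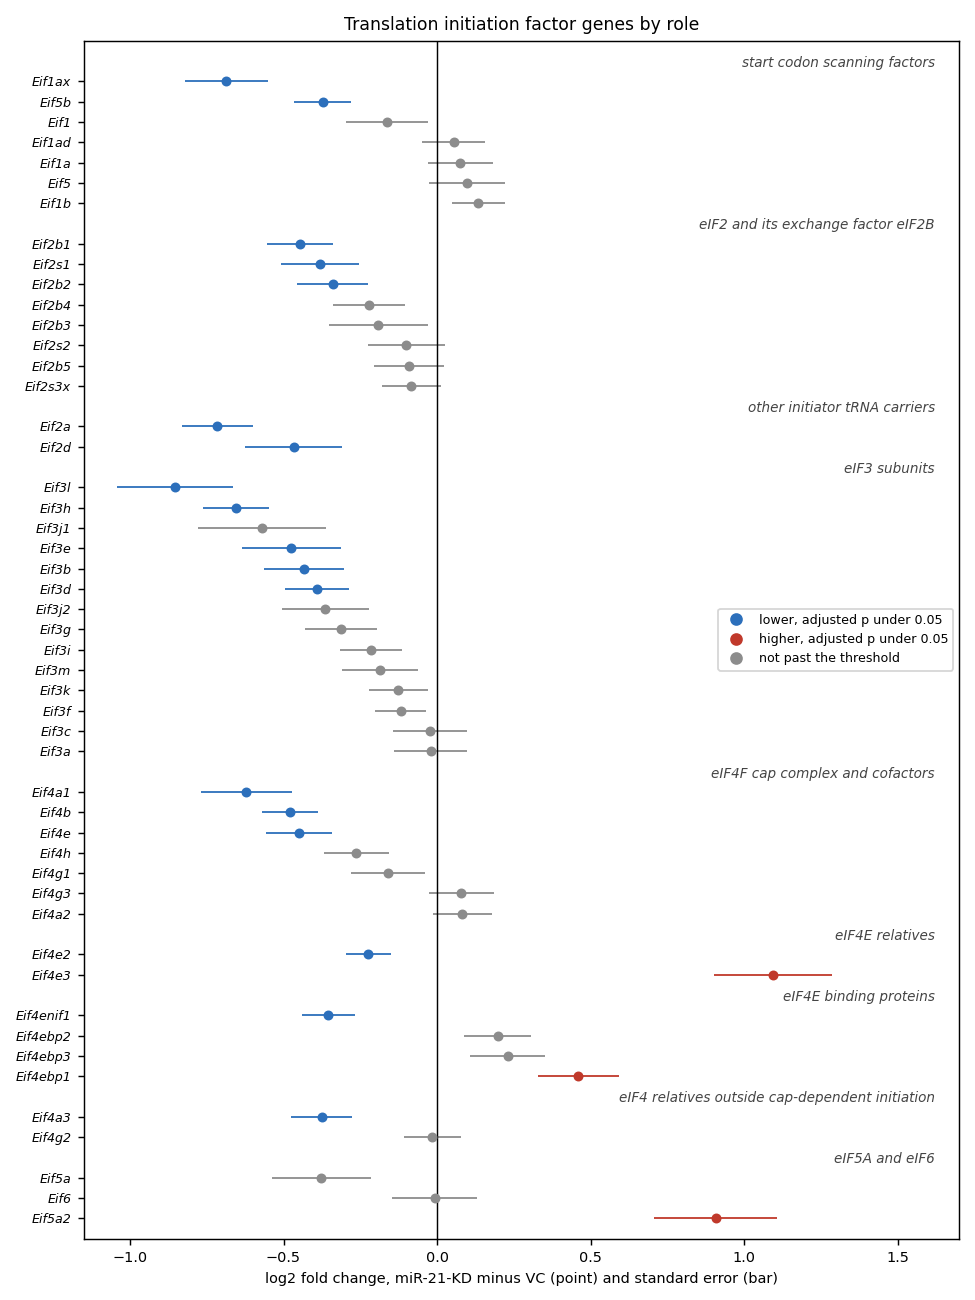
Log2 fold change of each of the 49 tested initiation factor genes (points; horizontal axis, miR-21-KD minus VC) with its standard error (bars), grouped by role and coloured by call. The 18 genes called lower are spread over 8 of the 9 roles, and the 3 called higher (Eif4e3, Eif4ebp1 and Eif5a2) lie in 3 roles.

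The tumours of the miR-21-KD group were unequal in these genes. Among the 18 members called lower, miR-21-KD tumour 2 had the highest level of its group for 16 and tumour 1 the lowest for 16. Summed over the tested members, VC tumours 1 to 4 held 10425, 10263, 10633 and 9841 CPM, and miR-21-KD tumours 1 to 4 held 7754, 9869, 9059 and 8373 CPM. By this sum miR-21-KD tumour 2 was just above VC tumour 4, and the other miR-21-KD tumours lay below every VC tumour.

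**Figure D2:**
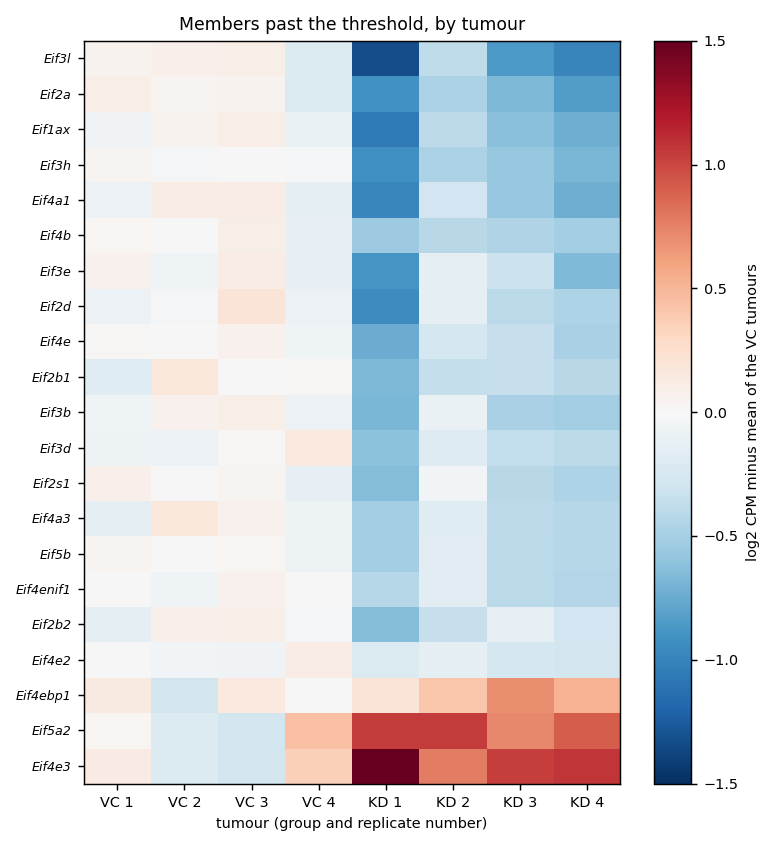
Heat map of the 21 members past the threshold (rows) in each tumour (columns, group and replicate number); colour is log2 CPM minus the mean of the VC tumours, blue below and red above. Of the KD columns, KD 2 is the palest and KD 1 the darkest in 16 of the 18 rows of lower genes.

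Other markers moved with the groups and across the same tumours. Of 8 proliferation markers (among them Mki67 and Top2a), 7 were lower, and their summed CPM was 1399 to 1965 in the VC and 523 to 1446 in miR-21-KD tumours, with miR-21-KD tumour 2 the highest of its group. Of 12 leukocyte markers 8 were higher (1093 to 1891 CPM in VC, 1959 to 3526 in miR-21-KD), as were 5 of 7 fibroblast markers (3062 to 8041 CPM against 10460 to 23375) and 5 of 5 adipocyte markers (85.2 to 319.8 CPM against 428.5 to 1124). Of 8 epithelial markers 6 were higher and 1, Krt18, was lower, with sums of 1282 to 2211 CPM in the VC and 899.9 to 1615 in miR-21-KD tumours, and all 8 were detected in every tumour. One of 5 endothelial markers was higher, and of 5 skeletal muscle markers 1 had enough counts to be tested and was not called. No marker was at 0 in all tumours, and 3 of the muscle markers were at 0 in at least 1 tumour. The part of this cell content in the initiation factor results was not tested.

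**Figure D3:**
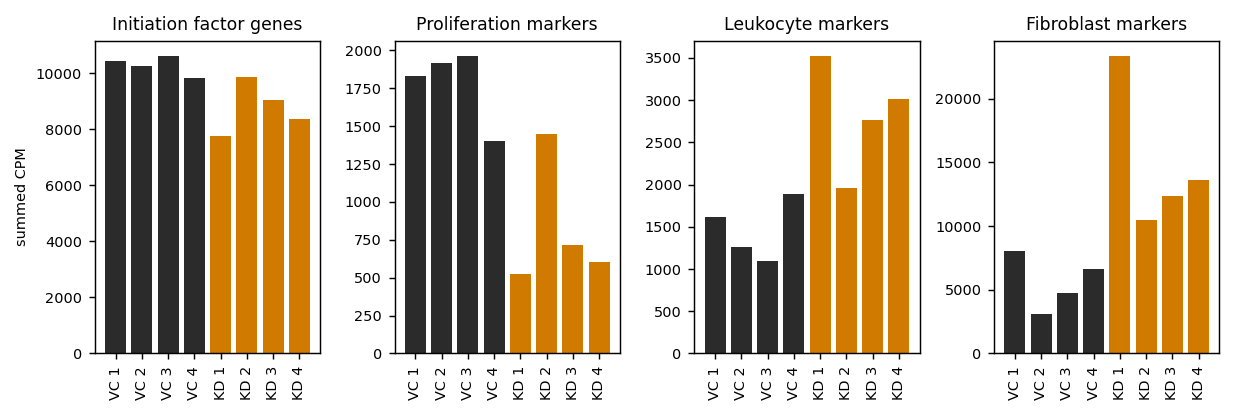
Summed CPM of the initiation factor genes and of the proliferation, leukocyte and fibroblast marker lists in each tumour (bars; VC black, miR-21-KD orange). The miR-21-KD tumour with the highest initiation factor sum, KD 2 (9869 CPM), also has, within its group, the highest proliferation sum (1446 CPM) and the lowest leukocyte sum (1959 CPM).

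The counts by role are small and are to be read against the same background, 19.5% of all genes tested lower and 19.6% higher. Of 7 genes grouped here with the factors that act at the start codon, 2 were lower and 5 were not past the threshold. Eif1ax, the X-linked gene for eIF1A, which holds the scanning ribosome open, was at 114.1, 122.9, 127.6 and 111.0 CPM in VC tumours 1 to 4 and at 57.0, 90.8, 76.6 and 71.2 CPM in miR-21-KD tumours 1 to 4. Every miR-21-KD tumour was below every VC tumour, a log2 fold change of -0.69 (SE 0.13, edgeR adjusted p = 0.0086). Eif5b, the GTPase of ribosomal subunit joining, was at 231.9, 227.6, 230.1 and 214.1 CPM in the VC and 158.5, 201.3, 170.2 and 168.3 CPM in miR-21-KD tumours, again without overlap (log2 fold change -0.37, SE 0.09, edgeR adjusted p = 0.0161). The antisense gene Rev1 overlaps 16.9% of the exon bases of Eif5b, and the sources used here do not say whether counting used the strand. Eif1a, the autosomal gene for the other eIF1A copy, had an estimate of 0.08 (SE 0.11, adjusted p = 0.588). The others, Eif1, Eif1b, Eif1ad and Eif5, had estimates between -0.16 and 0.13. Of these, 31.6% of the 50-base stretches of Eif1 transcripts also occur in transcripts of other genes, so that its reads could be split, and the antisense gene Banf1 overlaps 15.3% of the exon bases of Eif1ad.

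Of the 8 tested genes of eIF2 and of its exchange factor eIF2B, 3 were lower and none was higher, beside 19.5% and 19.6% of all genes, and every estimate was below 0 (-0.45 to -0.08). Eif2s1 codes for eIF2alpha, the subunit whose phosphorylation blocks eIF2B. It was at 163.5, 154.9, 158.7 and 142.4 CPM in the VC and at 98.7, 149.7, 115.8 and 111.8 CPM in miR-21-KD tumours. miR-21-KD tumour 2 lay within the VC range and the other 3 below it (log2 fold change -0.38, SE 0.13, edgeR adjusted p = 0.0429). Eif2s2 and Eif2s3x, the beta and gamma subunits, had estimates of -0.10 (SE 0.12) and -0.08 (SE 0.10), with 27.8% and 36.2% of their 50-base stretches shared with other genes.

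In eIF2B, both calls were in regulatory subunits. Eif2b1, the alpha subunit that senses phosphorylated eIF2, was at 42.5, 54.4, 47.9 and 48.6 CPM in the VC and 30.2, 37.7, 37.9 and 36.2 CPM in miR-21-KD tumours (log2 fold change -0.45, SE 0.11, edgeR adjusted p = 0.0152), without overlap. Eif2b2, the beta subunit, was at 70.6, 82.0, 82.4 and 76.0 CPM in the VC and 49.6, 61.0, 71.3 and 63.8 CPM in miR-21-KD tumours (-0.34, SE 0.12, edgeR adjusted p = 0.0447), where miR-21-KD tumour 3 overlapped the VC range. Eif2b5, the catalytic epsilon subunit, was at 84.1, 84.9, 83.9 and 77.6 CPM in the VC and at 63.2, 92.8, 77.6 and 76.6 CPM in miR-21-KD tumours. Its groups overlapped, and it did not pass the threshold (-0.09, SE 0.11, edgeR adjusted p = 0.542). Eif2b3 and Eif2b4 had estimates of -0.19 (SE 0.16) and -0.22 (SE 0.12) and were not called either.

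Both genes for alternative carriers of the initiator tRNA were lower. Eif2a, which despite its symbol is not the alpha subunit of eIF2 but a single-chain factor used at non-AUG and stress-resistant starts, had the smallest adjusted p of all members. It was at 130.2, 125.4, 126.2 and 105.8 CPM in the VC and at 64.7, 87.8, 76.4 and 67.9 CPM in miR-21-KD tumours. No miR-21-KD tumour reached the lowest VC tumour (log2 fold change -0.72, SE 0.12, edgeR adjusted p = 0.0060). Eif2d, which can deliver tRNA without GTP and acts in ribosome recycling, was at 62.8, 65.7, 76.5 and 63.0 CPM in the VC and at 34.6, 60.3, 50.6 and 48.4 CPM in miR-21-KD tumours, where tumour 2 came near the lowest VC tumour (-0.47, SE 0.16, edgeR adjusted p = 0.0451).

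The eIF3 complex is the largest initiation factor, built on a core of Eif3a, Eif3b and Eif3c. Of its 14 genes 5 were lower and none was higher, beside 19.5% and 19.6% of all genes, and all 14 estimates were below 0 (median -0.34, from -0.85 to -0.02). Eif3l, a peripheral subunit, fell most of all members, from 372.2, 379.7, 381.3 and 312.2 CPM in VC to 143.1, 276.9, 198.8 and 181.1 CPM in miR-21-KD tumours (log2 fold change -0.85, SE 0.19, edgeR adjusted p = 0.0119). VC tumour 4 was the lowest of its group and still above all miR-21-KD tumours. Eif3h, which helps ribosomes to stay competent for reinitiation, was at 391.9, 376.2, 377.3 and 375.6 CPM in the VC and at 200.3, 274.2, 256.3 and 235.6 CPM in miR-21-KD tumours (-0.65, SE 0.11, edgeR adjusted p = 0.0063). Here the VC tumours were close to each other and the groups were far apart.

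The other 3 called eIF3 genes were Eif3d, which can itself bind the cap of some mRNAs, Eif3b, the scaffold, and Eif3e, known as Int6 from a mouse mammary tumour virus insertion site. Eif3d was at 117.5, 116.9, 125.7 and 137.8 CPM in the VC and 80.8, 108.4, 96.2 and 94.2 CPM in miR-21-KD tumours (-0.39, SE 0.10, edgeR adjusted p = 0.0202). Eif3b was at 324.4, 354.9, 360.6 and 318.3 CPM in the VC and 211.5, 316.4, 242.1 and 236.5 CPM in miR-21-KD tumours (-0.43, SE 0.13, edgeR adjusted p = 0.0300). Eif3e was at 293.2, 268.3, 303.4 and 256.7 CPM in the VC and 151.3, 255.5, 223.7 and 177.1 CPM in miR-21-KD tumours (-0.47, SE 0.16, edgeR adjusted p = 0.0450). In all 3 genes the groups did not overlap, but miR-21-KD tumour 2 lay near the lowest VC tumour. An antisense gene overlaps 43.3% of the exon bases of Eif3d, and 22.0% of the 50-base stretches of Eif3e and 26.2% of those of Eif3h also occur in other genes, mostly pseudogenes.

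The core was not called as a whole. Beside Eif3b, Eif3a had an estimate of -0.02 (SE 0.12, adjusted p = 0.906) and Eif3c one of -0.02 (SE 0.12, adjusted p = 0.893), and the sign of both changed with upper-quartile scaling. Eif3f, Eif3g, Eif3i, Eif3k and Eif3m were not past the threshold, with estimates from -0.31 to -0.12. Eif3g passed it with the replicate number as a block (adjusted p = 0.0250, 0.0615 without). The loosely bound subunit eIF3j has a pair of nearly identical genes in the mouse, and 54.8% and 91.9% of the 50-base stretches of Eif3j1 and Eif3j2 occur in other genes, so that the division of reads between them is uncertain. Their estimates were -0.57 (SE 0.21, adjusted p = 0.0564) and -0.36 (SE 0.14, adjusted p = 0.0686).

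In the cap complex eIF4F and its cofactors, 3 of 7 genes were lower and none was higher, beside 19.5% and 19.6% of all genes. Eif4e, the cap-binding protein, was at 156.6, 154.8, 161.9 and 148.0 CPM in the VC and at 92.6, 129.2, 122.6 and 110.4 CPM in miR-21-KD tumours. The lowest VC tumour was above the highest miR-21-KD tumour (log2 fold change -0.45, SE 0.11, edgeR adjusted p = 0.0149). Eif4a1, the RNA helicase that unwinds 5′ UTRs, was at 310.8, 357.2, 357.4 and 299.6 CPM in the VC and at 168.0, 271.7, 223.2 and 198.9 CPM in miR-21-KD tumours (-0.62, SE 0.15, edgeR adjusted p = 0.0148). Of its 50-base stretches 65.3% also occur in other genes, most of them pseudogenes, so that part of its reads could have been left out or assigned elsewhere. Eif4b, which stimulates the helicase, was at 713.7, 700.6, 739.6 and 638.3 CPM in the VC and at 479.2, 524.2, 509.8 and 488.4 CPM in miR-21-KD tumours (-0.48, SE 0.09, edgeR adjusted p = 0.0080). Both groups were tight and separate in this gene.

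The scaffold gene Eif4g1 was at 504.1, 523.9, 497.1 and 453.2 CPM in the VC and at 404.6, 533.9, 442.6 and 388.6 CPM in miR-21-KD tumours. miR-21-KD tumour 2 was the highest of all 8, and the difference did not pass the threshold (-0.16, SE 0.12, edgeR adjusted p = 0.306). The alternative helicase and scaffold genes Eif4a2 and Eif4g3 had estimates of 0.08 (SE 0.10) and 0.08 (SE 0.11), with snoRNA and other genes lying in 9.63% of the exon bases of Eif4a2. Eif4h, a second helicase cofactor, did not overlap between groups but was not called (-0.26, SE 0.10, adjusted p = 0.0731).

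The relatives and inhibitors of eIF4E contained 2 of the 3 higher genes. Eif4e3, a cap-binding relative with a different mode of cap recognition, had the largest rise of all members, from 21.2, 16.8, 16.1 and 25.0 CPM in VC to 54.8, 33.2, 39.9 and 40.8 CPM in miR-21-KD tumours (log2 fold change 1.09, SE 0.19, edgeR adjusted p = 0.0070). miR-21-KD tumour 1 was the highest, and miR-21-KD tumour 2 the nearest to the VC tumours. A gene on the same strand, Gm20696, overlaps 14.8% of its exon bases. Eif4e2 (4EHP), which binds the cap without recruiting eIF4G and takes part in repression, was at 109.3, 107.1, 105.9 and 118.5 CPM in the VC and at 94.4, 100.4, 91.6 and 91.0 CPM in miR-21-KD tumours (-0.22, SE 0.07, edgeR adjusted p = 0.0383). This small difference did not pass the threshold with the replicate number as a block (adjusted p = 0.0541).

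Eif4ebp1, the mTORC1 substrate that keeps eIF4E from eIF4G when unphosphorylated, was at 97.8, 73.5, 98.2 and 88.8 CPM in the VC and at 101.9, 118.7, 144.2 and 127.6 CPM in miR-21-KD tumours. The groups were separate by a narrow margin between miR-21-KD tumour 1 and VC tumour 3 (log2 fold change 0.46, SE 0.13, edgeR adjusted p = 0.0257). Its relative Eif4ebp2 was at 51.3, 47.5, 39.5 and 45.5 CPM in the VC and at 60.2, 53.7, 49.3 and 47.4 CPM in miR-21-KD tumours, with overlapping groups (0.20, SE 0.11, edgeR adjusted p = 0.179). Eif4ebp3 had an estimate of 0.23 (SE 0.12, adjusted p = 0.156) and shares 67.3% of its exon bases with a readthrough gene. Eif4enif1 (4E-T), which carries eIF4E into the nucleus and P-bodies, was at 96.8, 92.7, 101.1 and 97.7 CPM in the VC and at 72.3, 87.1, 73.0 and 71.3 CPM in miR-21-KD tumours (-0.35, SE 0.09, edgeR adjusted p = 0.0148), without overlap.

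Of the genes related to eIF4 that were grouped outside cap-dependent initiation, Eif4a3, the helicase of the exon junction complex, was at 88.4, 108.6, 102.4 and 92.5 CPM in the VC and at 68.8, 86.1, 74.6 and 72.5 CPM in miR-21-KD tumours (-0.38, SE 0.10, edgeR adjusted p = 0.0201). Its groups were separate by a narrow margin, between miR-21-KD tumour 2 and VC tumour 1, and 24.4% of its 50-base stretches occur in other genes. Eif4g2 (DAP5), a scaffold that lacks the eIF4E-binding site, ranged from 1117 to 1179 CPM in the VC and from 1056 to 1177 CPM in miR-21-KD tumours (-0.02, SE 0.09, adjusted p = 0.909), and its sign changed with upper-quartile scaling and with DESeq2.

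Eif5a2, the less expressed paralog of Eif5a, was higher in miR-21-KD tumours. eIF5A is the hypusine-bearing factor that relieves stalled ribosomes. Eif5a2 was at 4.79, 4.07, 3.86 and 6.38 CPM in the VC and at 9.70, 9.67, 7.71 and 8.77 CPM in miR-21-KD tumours, without overlap (log2 fold change 0.91, SE 0.20, edgeR adjusted p = 0.0117). Eif5a was at 959.8, 956.5, 1086 and 872.7 CPM in the VC and at 564.8, 951.0, 764.6 and 704.7 CPM in miR-21-KD tumours. miR-21-KD tumour 2 lay within the VC range and the gene was not called (-0.38, SE 0.16, edgeR adjusted p = 0.0923). Per kilobase of exon, the mean VC level was 407.6 CPM for Eif5a, the highest of all members, and 0.950 CPM for Eif5a2, the lowest of those tested. Eif6, which keeps the large ribosomal subunit apart from the small one, was at 109.4, 121.7, 141.5 and 128.9 CPM in the VC and at 94.6, 140.1, 140.8 and 123.0 CPM in miR-21-KD tumours, with groups that overlapped (-0.01, SE 0.14, edgeR adjusted p = 0.967) and a sign that changed with the same settings.

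**Figure D4:**
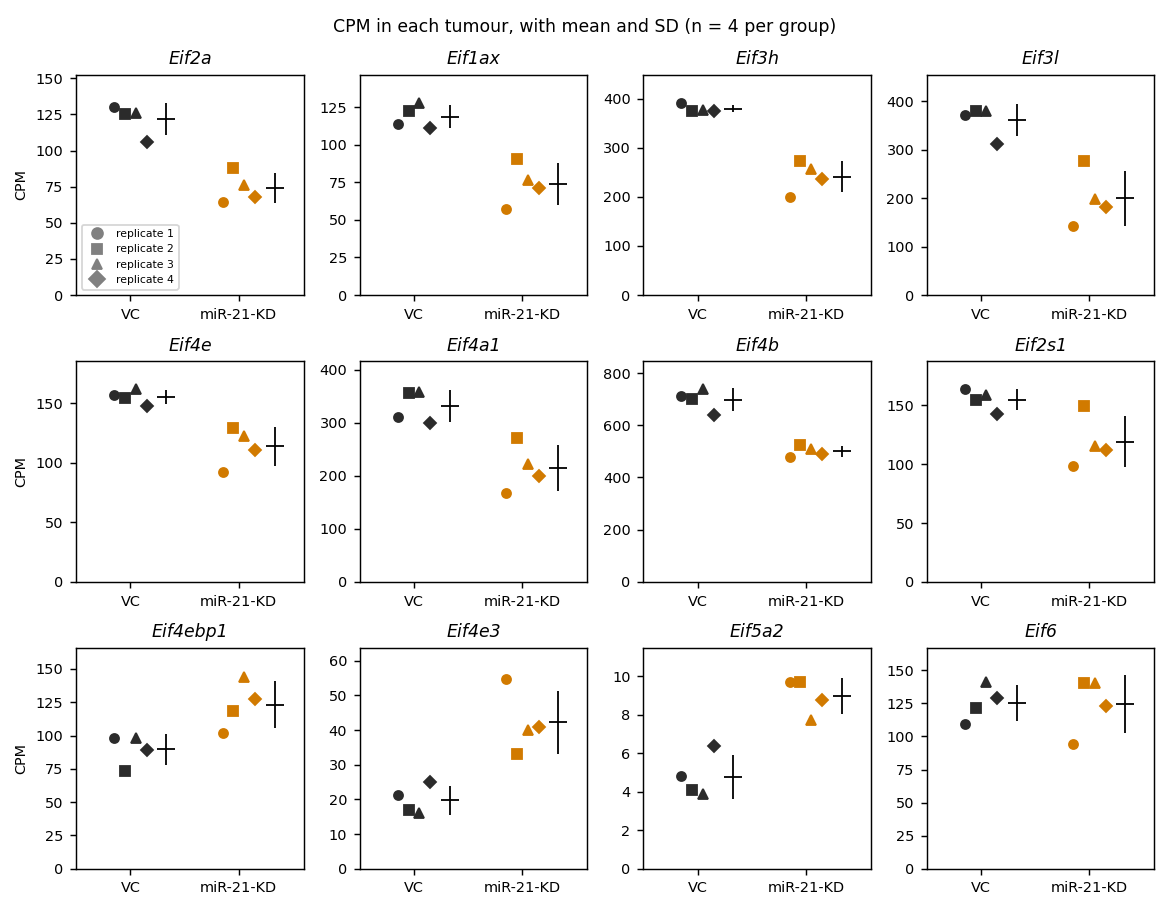
CPM (vertical axes, from 0) of 12 members in each VC (black) and miR-21-KD (orange) tumour, with replicate numbers as marker shapes and the mean ± SD of each group (n = 4). Replicate 2 of the miR-21-KD group (squares) is the highest orange point in the 8 lower genes plotted here, and overlaps the VC tumours in Eif2s1 (149.7 CPM).

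Ratios within a tumour do not depend on how libraries are scaled and show which partners changed unequally. In 12 such pairs the difference in mean log2 ratio was tested with an exact two-sided permutation test over tumours, adjusted over the pairs; its smallest p for 4 against 4 tumours is 0.0286. This p was reached by 9 pairs (adjusted p = 0.0381), and the groups did not overlap in any of these 9. The pairs were chosen with the values of their genes known. In Eif4e3/Eif4e, Eif4ebp1/Eif4e and Pdcd4/Eif4a1 the numerator was already separate upward and the denominator separate downward, so that these ratios had to reach this p and restate the calls of the single genes. Between the inhibitors and their target, Eif4ebp1/Eif4e was higher by 0.92 and Eif4ebp2/Eif4e by 0.66 in miR-21-KD tumours. For Eif4ebp1/Eif4e, the log2 ratio was -0.68, -1.07, -0.72 and -0.74 in the VC and 0.14, -0.12, 0.23 and 0.21 in miR-21-KD tumours. Pdcd4/Eif4a1, the helicase and its inhibitor, was higher by 1.65, from -3.30, -4.08, -3.90 and -3.36 in VC to -1.35, -2.62, -2.30 and -1.77 in miR-21-KD tumours.

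Among paralogs, Eif4e3/Eif4e was higher by 1.55, Eif5a2/Eif5a by 1.30, Eif4a2/Eif4a1 by 0.72, Eif1b/Eif1 by 0.32 and Eif3j2/Eif3j1, whose reads cannot be divided with certainty, by 0.21 on the log2 scale. Eif4e2/Eif4e (0.24, exact p = 0.0857), Eif4g2/Eif4g1 (0.15, exact p = 0.114) and Eif4g3/Eif4g1 (0.24, exact p = 0.0571) did not pass. Eif2s1/Eif2b5, the alpha subunit gene of eIF2 against the catalytic subunit gene of eIF2B, was at a difference of -0.29; the genes of the other eIF2 subunits were not set against Eif2b5. With 1 tumour left out, the difference kept its sign in every repeat of all 12 pairs, from 0.49 to 0.73 for Eif4ebp2/Eif4e, from -0.32 to -0.27 for Eif2s1/Eif2b5 and from 0.63 to 0.88 for Eif4a2/Eif4a1. An exact test of 3 against 4 tumours has few steps near its smallest p, so that passing or not passing it is no measure of how stable a pair is. Eif4a2/Eif4a1 and Eif1b/Eif1 did not pass without any 1 of the VC tumours (adjusted p up to 0.0857 and 0.152), Eif3j2/Eif3j1 without any 1 of the miR-21-KD tumours (up to 0.137) and Eif5a2/Eif5a without miR-21-KD tumour 1 or 4 (0.0857). Paired by replicate number, an exact sign-flip test cannot go below 0.125, the value that all 12 pairs reached, so none passed.

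**Figure D5:**
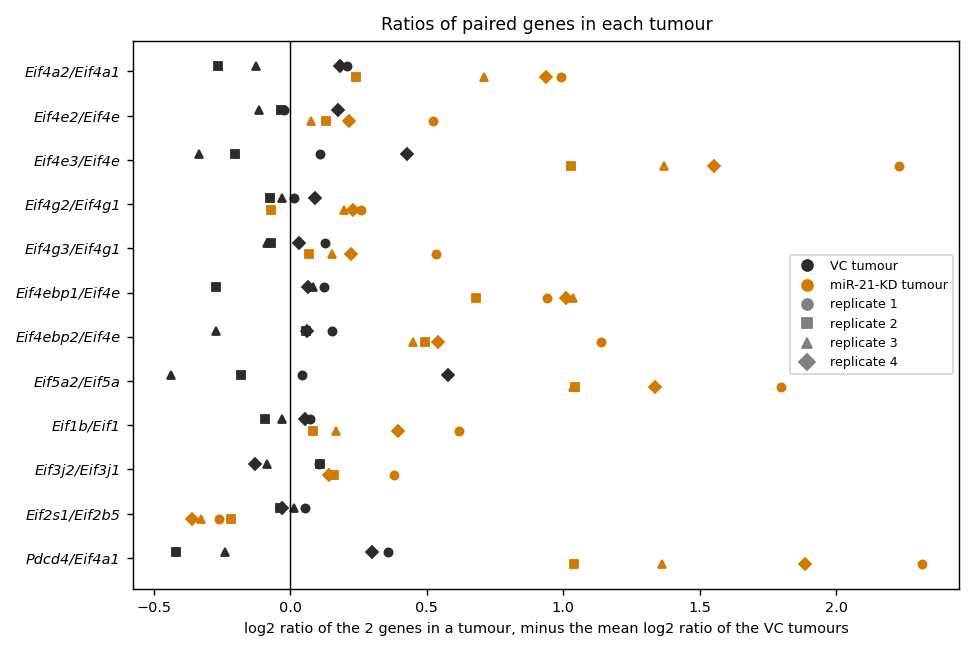
Log2 ratio of each gene pair in every VC (black) and miR-21-KD (orange) tumour, minus the mean VC ratio of that pair (horizontal axis); marker shapes are replicate numbers. Orange points lie apart from black points in the 9 pairs that passed, and farthest for Pdcd4/Eif4a1, with a mean difference of 1.65.

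Genes that act on the initiation factors were read against the same background, 19.6% of all genes tested higher and 19.5% lower. Of 10 genes for eIF2alpha kinases and phosphatase subunits 2 were higher and 1 was lower, at or below about that background. Ppp1r15a (GADD34), the stress-induced subunit that directs dephosphorylation of eIF2alpha, was at 36.5 ± 6.75 CPM in the VC and 62.4 ± 12.3 CPM in the miR-21-KD tumours (SD, n = 4; log2 fold change 0.77, SE 0.17, edgeR adjusted p = 0.0115). Eif2ak3 (PERK), the kinase of endoplasmic reticulum stress, was at 27.3 ± 3.82 and 38.2 ± 3.91 CPM (0.48, SE 0.12, edgeR adjusted p = 0.0180). Eif2ak2 (PKR), the double-stranded RNA sensor, was lower, at 76.9 ± 4.45 and 55.5 ± 10.4 CPM (-0.47, SE 0.13, edgeR adjusted p = 0.0233). In all 3 genes the groups did not overlap. Without VC tumour 2 or 3 Eif2ak3 and Eif2ak2 were not past the threshold (adjusted p up to 0.0550 and 0.0615), and the latter was not past it without miR-21-KD tumour 3 or 4 either.

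In the list of mTORC1 and of kinases that act on initiation factors, 3 of 17 genes were higher, near the background of 19.6%, and 6 were lower, beside 19.5% of all genes. The smallest adjusted p values were those of Tsc1, a brake on mTORC1 (54.9 ± 3.21 CPM in the VC and 38.4 ± 3.23 in miR-21-KD tumours; log2 fold change -0.52, SE 0.09, edgeR adjusted p = 0.0067), Larp1, which binds mRNAs with a terminal oligopyrimidine tract (269.5 ± 13.2 and 191.6 ± 31.4 CPM; -0.49, SE 0.12, edgeR adjusted p = 0.0149), and Sesn2, a stress-induced inhibitor of mTORC1 (13.1 ± 2.13 and 19.6 ± 1.96 CPM; 0.58, SE 0.15, edgeR adjusted p = 0.0166). Sesn2 was not past the threshold without VC tumour 3 (adjusted p = 0.0545).

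Of 20 other genes of initiation and recycling 1 was higher and 4 were lower. The higher one was Pdcd4, whose seed match is shown with those of the members; it was at 31.3, 20.98, 23.8 and 29.0 CPM in the VC and at 66.0, 44.0, 45.2 and 58.1 CPM in miR-21-KD tumours. All miR-21-KD tumours were above all VC tumours (log2 fold change 1.02, SE 0.17, edgeR adjusted p = 0.0067). Paip1, which links the poly(A)-binding protein to eIF4A and eIF3, was lower (139.6 ± 7.45 and 96.7 ± 10.0 CPM; -0.53, SE 0.09, edgeR adjusted p = 0.0069), as was Mcts2, a retrocopy of the recycling factor gene Mcts1 whose reads could be shared with it (9.45 ± 0.870 and 5.26 ± 0.739 CPM; -0.85, SE 0.16, edgeR adjusted p = 0.0082). Of 11 tested elongation and termination factors 1 was higher and 2 were lower. Eef2k, the inhibitory kinase of eEF2, was higher (38.1 ± 1.63 and 53.7 ± 10.6 CPM; 0.50, SE 0.14, edgeR adjusted p = 0.0251), with overlap at miR-21-KD tumour 2. The eEF1B subunit genes Eef1d (-0.39, SE 0.09, edgeR adjusted p = 0.0140) and Eef1g (-0.37, SE 0.11, edgeR adjusted p = 0.0266) were lower, and the second was not past the threshold with the replicate number as a block (0.0508). With 1 tumour left out, Eef2k was not past it without VC tumour 2 or 3 or miR-21-KD tumour 1, 3 or 4 (adjusted p up to 0.0704). Eef1g was not past it without VC tumour 1 or 3 or the same miR-21-KD tumours (up to 0.0676).

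Promoter letters were not used to choose the genes. RefSeq promoter windows (GRCm38.p6, 250 bases before to 50 after the start) were at hand for 41 members, and the letters CACGTG, the E-box that MYC and related factors bind, occurred on either strand in those of 10 members (24.4%), against 8.99% of 18458 genes. The ETS motif CCGGAAGT occurred in 17.1% of members and 5.6% of genes, the NRF1 core CGCATGCG in 7.32% and 2.73%, the letters TATAAA in 9.76% and 14.5%, CCAAT in 34.1% and 42.2%, and the ATF4 core TGATGCAA in 0 members and 1.05% of genes. None of these motifs holds the letters of another, and a match describes letters and not binding. The E-box did not go with 1 direction: among members with a window it was found in 2 of 16 that were lower (Eif4a1 and Eif4e), in the 1 that was higher (Eif5a2) and in 7 of 21 that were not called (Eif1b, Eif3a, Eif3f, Eif3k, Eif4g1, Eif4h and Eif5a). The 250 bases upstream of the start of the 3 called genes are shown because the same letters precede genes that moved in opposite directions, with the E-box in capitals: chr11:69672424-69672673 (minus strand, Eif4a1), chr3:138527018-138527267 (plus, Eif4e) and chr3:28781027-28781276 (plus, Eif5a2).

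Eif4a1 promoter: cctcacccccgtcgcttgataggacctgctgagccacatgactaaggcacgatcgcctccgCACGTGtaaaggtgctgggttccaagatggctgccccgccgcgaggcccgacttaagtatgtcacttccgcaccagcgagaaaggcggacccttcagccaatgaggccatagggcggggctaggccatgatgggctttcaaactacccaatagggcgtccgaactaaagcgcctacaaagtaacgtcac
Eif4e promoter: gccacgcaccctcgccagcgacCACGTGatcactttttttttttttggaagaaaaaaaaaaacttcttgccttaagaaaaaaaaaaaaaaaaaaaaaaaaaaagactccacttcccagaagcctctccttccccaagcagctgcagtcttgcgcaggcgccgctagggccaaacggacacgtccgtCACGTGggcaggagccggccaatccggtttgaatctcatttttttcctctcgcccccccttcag
Eif5a2 promoter: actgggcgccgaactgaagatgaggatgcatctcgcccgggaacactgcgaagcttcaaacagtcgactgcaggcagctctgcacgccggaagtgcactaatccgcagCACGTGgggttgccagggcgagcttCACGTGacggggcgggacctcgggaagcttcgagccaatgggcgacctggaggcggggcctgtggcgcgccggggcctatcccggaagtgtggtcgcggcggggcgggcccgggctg

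The E-box starts 189 bases upstream of the start in Eif4a1, 228 and 64 bases upstream of the start shown in Eif4e, and 142 and 117 bases upstream in Eif5a2. RefSeq lists another start of Eif4e, farther upstream, whose window (chr3:138525941-138526240, plus strand) holds no E-box and is not shown.

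The strength of the 21 calls differed. With each tumour left out in turn, 11 stayed past the threshold in all 8 repeats, namely Eif2a, Eif3h, Eif4e3, Eif4b, Eif1ax, Eif5a2, Eif3l, Eif4enif1, Eif4a1, Eif4e and Eif2b1. Of the other 10, Eif5b was lost without VC tumour 3 alone (adjusted p = 0.0501) and Eif3d without VC tumour 3 or miR-21-KD tumour 4 (0.0551 at most). Eif4ebp1 was lost without VC tumour 2 or 3 or miR-21-KD tumour 3 or 4 (up to 0.0698). Eif4a3 and Eif3b were lost without VC tumour 2 or 3 or miR-21-KD tumour 1, 3 or 4 (up to 0.0599 and 0.0816). Eif2s1 was lost in 6 repeats, being past the threshold without VC tumour 4 or miR-21-KD tumour 2, and Eif4e2, Eif2b2, Eif3e and Eif2d in 7 (up to 0.106, 0.0971, 0.111, 0.115 and 0.119). Eif4e2, Eif3e and Eif2d stayed past it only without miR-21-KD tumour 2, and Eif2b2 only without miR-21-KD tumour 3. With the other scalings, filters and tools and with the replicate block, 5 of the 21 calls were lost in at least 1 fit. When each tumour needed 10 counts, the adjusted p was 0.0852 for Eif4e2, 0.0563 for Eif2s1, 0.0675 for Eif2b2, 0.0563 for Eif3e and 0.0561 for Eif2d. Eif4e2, Eif2b2 and Eif2d were also lost with upper-quartile scaling (0.0721, 0.0603 and 0.0512), Eif2s1 and Eif3e with no filter on low counts (0.0501 and 0.0516) and Eif4e2 with the replicate block (0.0541). By edgeR's test for a change of more than 1.5-fold, 0 of 49 members passed, beside 542 of 14382 genes tested. By the same test 4 members had an unadjusted p under 0.05, whereas 5 of the 18 lower members had an estimate beyond 1.5-fold. With the replicate number as a block 18 members were lower, against 22.1% of all genes, and 3 higher, against 23.0%.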

How the data were processed

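RNA was measured by bulk sequencing in 4 VC and 4 miR-21-KD tumours. As the authors deposited it, the table holds whole-number counts for each Entrez identifier, not normalised, with 1 column per tumour. The submitters' processing notes name mm10, Subread, featureCounts, edgeR and limma; versions, annotation, strand setting and filters are not given in the sources used here. Symbols matched 25275 of 27179 identifiers, and 0 per-sample columns were unmapped.

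The fit was made on the whole table in R 4.3.3 with edgeR 4.0.16: filterByExpr by group (minimum count 10, minimum total 15), TMM scaling, robust quasi-likelihood test of miR-21-KD against VC and Benjamini-Hochberg adjustment over 14382 genes with a threshold of 0.05. Standard errors were derived from the estimate and F. CPM were TMM-scaled, and log2 ratios used a prior count of 2. The procedure was tested on simulated data. Alternatives used limma 3.58.1 and DESeq2 1.42.0. Tables and figures were made in Python 3.11.15 with matplotlib 3.10.9. Replicates of a group differed beyond sampling noise (chi-square per degree of freedom 12.6 to 70.7). Same-numbered tumours of the 2 groups deviated together (r = 0.27, 0.42, 0.18 and 0.38), beside a mean r of -0.10 for the other combinations. Values were centred within each group, which ties these r values to each other. For the replicate block and the paired test the numbers were taken to pair the tumours, from the data and not from the labels. The main fit did not use the numbers, and the pairing itself was not tested. Gene positions, overlaps and shared 50-base stretches came from the GRCm38 annotation (GENCODE M21), and promoter and miRNA sequences from RefSeq; the annotation used for counting may differ.

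The members, gene lists, pairs and tests were chosen with earlier results of these data known, and the motifs after the files were read; the NRF1 letters were shortened from a longer form after its matches had been counted. Values in every tumour were to be given for members past the threshold (at most 24) and, whatever their result, for Eif4e, Eif4g1, Eif4a1, Eif4ebp1, Eif4ebp2, Eif2s1, Eif2b5, Eif3e, Eif5a and Eif6. Of each list of related genes, the 3 of smallest adjusted p past the threshold were named, and Pdcd4. Other members are named with their estimates to account for all. Marker genes of the lists were set in the same way.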

Additional observations from a re-analysis of the deposited data

Results flagged for a closer look

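Of 122 sets of 4 tumours examined (each tested member and each related gene named in the text, in each group), 6 held a tumour whose distance to the nearest other, as a share of the whole range, was above the 95% critical value of Dixon's test for 4 values. Chance gives about 1 in 20 sets. In VC tumours these were Eif3h (0.893, tumour 1 at 391.9 CPM and the others at 375.6 to 377.3), Eif3j2 (0.981, tumour 1 at 58.9 CPM and the others at 50.4 to 50.6), Eif3l (0.868, tumour 4 at 312.2 CPM and the others at 372.2 to 381.3) and Eif2b5 (0.859, tumour 4 at 77.6 CPM and the others at 83.9 to 84.9). In miR-21-KD tumours they were Eif4enif1 (0.890, tumour 2 at 87.1 CPM and the others at 71.3 to 73.0) and Eif3i (0.844, tumour 1 at 121.1 CPM and the others at 147.5 to 152.3). The tumours that stood apart in Eif3h, Eif3l and Eif4enif1 left their groups without overlap.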

How the results depend on the processing

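The 21 calls among 49 members (3 higher, 18 lower) stood beside 5626 of 14382 genes in all. They became 18 (3 and 15) with upper-quartile scaling, beside 5545 genes. With no filter they were 19 (3 and 16), beside 5273 of 20730 genes. When each tumour needed 10 counts they were 16 (3 and 13), beside 5112 of 13083. They were 21 with library size alone, 22 with limma-voom, 27 with its quality weights and 24 with DESeq2. The genes called in all were then 5608, 5761, 8179 and 6550 of 14382. Of the 21 calls, 16 were made in all of these and with the replicate block, 8 fits in all. The others were Eif4e2, Eif2s1, Eif2b2, Eif3e and Eif2d. At an adjusted p under 0.01 the calls among members were 5 (1 and 4), beside 1426 of 14382 genes (670 and 756). By the 1.5-fold test they were 0 in each direction, beside 542 of 14382 genes (334 and 208). Leaving out 1 tumour gave 11 to 26 calls, 9 to 23 of them lower. The fewest were without VC tumour 3 (11, beside 2936 of 14636 genes), miR-21-KD tumour 4 (12, beside 3366 of 14460) and VC tumour 2 (13, beside 3290 of 14642). The most were without miR-21-KD tumour 2 (26, beside 6840 of 14620). Over all genes, higher and lower were 1449 and 1487 without VC tumour 3, and 3290 and 3550 without miR-21-KD tumour 2. Blocking by replicate number lost Eif4e2 and gained Eif3g and changed no other member's call. Estimates near 0 turned positive with upper-quartile scaling (Eif3c 0.018, Eif3a 0.022, Eif4g2 0.027, Eif6 0.033), with the stricter filter (0.027, 0.030, 0.036 and 0.042) and with DESeq2 (Eif4g2 0.00323, Eif6 0.00971), and spanned 0 with 1 tumour left out (Eif3c -0.10 to 0.047, Eif3a -0.096 to 0.063, Eif4g2 -0.040 to 0.018, Eif6 -0.075 to 0.10). In the lists of eIF2alpha kinases and phosphatases, mTORC1, other initiation and elongation genes, the counts higher (2, 3, 1 and 1) became 1 to 2, 0 to 3, 1 to 2 and 0 to 2 with 1 tumour left out, and the counts lower (1, 6, 4 and 2) became 0 to 1, 2 to 7, 3 to 7 and 1 to 4. An adjusted p under 0.01 left 0 higher of the kinases, of mTORC1 and of elongation, 0 lower of the kinases and of elongation, 1 lower of mTORC1 and 2 lower of other initiation genes, and the 1.5-fold test left 0 in every list and direction. In other initiation genes, 3 were higher with DESeq2, 2 with the stricter filter and 4 with quality weights, which called 7 lower there and 5 higher in mTORC1. In elongation genes, 2 were higher with DESeq2, the stricter filter, quality weights and the replicate block, and 4 lower with DESeq2 and quality weights, against 1 with the block. Over all genes, higher and lower were 3439 and 3111 of 14382 with DESeq2, and 4041 and 4138 of 14382 with quality weights. They were 2731 and 2381 of 13083 with the stricter filter, and 3309 and 3176 of 14382 with the block. Under the pairing by replicate number the mean differences of the pair ratios are the same by arithmetic (Eif4a2/Eif4a1 0.72, Eif4e3/Eif4e 1.55, Eif4ebp1/Eif4e 0.92, Eif4ebp2/Eif4e 0.66, Eif5a2/Eif5a 1.30, Eif1b/Eif1 0.32, Eif3j2/Eif3j1 0.21, Eif2s1/Eif2b5 -0.29, Pdcd4/Eif4a1 1.65), and 0.05 cannot be reached. With 1 tumour left out they were 0.63 to 0.88 for Eif4a2/Eif4a1, 1.14 to 1.5 for Eif5a2/Eif5a, 0.22 to 0.39 for Eif1b/Eif1, 0.15 to 0.24 for Eif3j2/Eif3j1, 0.12 to 0.23 for Eif4g2/Eif4g1 and 0.15 to 0.30 for Eif4g3/Eif4g1, the last 2 passing only without miR-21-KD tumour 2. Where a count moved, the cause was not tested. Depth limits Eif5a2 and Eif3j1 most, at under 10 CPM.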
